A study of Mus musculus with 8 samples.

Results

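The 10 genes described here carry or load the class I antigen display of the cell surface. H2-K1 and H2-D1 encode the classical heavy chains, and H2-Q4, H2-Q6, H2-Q7 and H2-T23 encode nonclassical relatives. H2-Bl is a related gene that is annotated as a polymorphic pseudogene. B2m encodes the invariant light chain. Tap1 encodes a subunit of the peptide transporter of the endoplasmic reticulum, and Tapbp encodes tapasin, which bridges the transporter to empty class I molecules. They were picked by name from the 49585 genes of the count table, and all 10 were found. Their Ensembl identifiers are ENSMUSG00000061232 (H2-K1), ENSMUSG00000073411 (H2-D1), ENSMUSG00000035929 (H2-Q4), ENSMUSG00000073409 (H2-Q6), ENSMUSG00000060550 (H2-Q7), ENSMUSG00000067212 (H2-T23), ENSMUSG00000073406 (H2-Bl), ENSMUSG00000060802 (B2m), ENSMUSG00000037321 (Tap1) and ENSMUSG00000024308 (Tapbp). They were selected on measured values of these same livers, H2-Bl for being on in some livers and off in others, so the group as a whole is described and not tested. All 10 passed the filter on low counts and entered the fit across 16496 genes, whose adjusted p-values are given for the single genes other than H2-Bl.

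Liver RNA came from 8 male mice kept for 3 months, from 21 days of age, on the HFCD diet, which is rich in fat and lacks choline and so brings on fatty liver. The LP+/+ group had 3 livers labelled Alb-Cre0, of which replicates 1 and 2 carried an unrecombined Trp53fl/+ allele and replicate 3 an unrecombined Trp53wm-R245W/+ allele. The results text of the study instead calls this group Alb-Cre carriers, and the labels were followed. The LPfl/+ group had 2 livers labelled Alb-CreTG and Trp53fl/+, in which Cre deletes 1 Trp53 allele. The LP245/+ group had 3 livers labelled Alb-CreTG and Trp53wm-R245W/+, in which Cre switches 1 allele to the R245W mutant. Alb-Cre acts in hepatocytes and cholangiocytes, so Kupffer cells, lymphocytes and endothelium kept both wild-type alleles in every animal. The strain background of the mice is not given in the sources used here.

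Class I molecules hold short peptides cut by the proteasome in the cytosol. The peptides enter the endoplasmic reticulum through the TAP transporter, are trimmed and fitted with the help of tapasin, and are then shown to CD8 T cells at the surface, while NK cells read the amount and kind of class I. Most nucleated cells express class I, hepatocytes at a modest level, and interferon-gamma raises heavy chains, TAP and the immunoproteasome through IRF1 and the coactivator NLRC5. The Q and T regions of the mouse MHC hold a number of heavy chain genes and pseudogenes that differs between inbred strains.

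The promoters of classical class I genes carry a compact enhancer, and 5 stretches are shown because they let the members be compared with each other and with H2-Q10, a secreted class I gene known for its expression in liver. Sequences and start sites are those of RefSeq on GRCm38.p6, which held a window for 9 of the 10 members and none was matched for H2-Bl. Each stretch is the 180 bases before the start site, 5′ to 3′ on the strand of the gene. Capitals mark 4 searched motifs on either strand, namely GGGGATTCC (the NF-kB site of the class I enhancer), AANNGAAA (the core bound by interferon regulatory factors), TGACG (a CRE-like core) and ATTGG (the inverted CCAAT or Y box).
H2-K1, chr17:34000348-34000527, minus strand: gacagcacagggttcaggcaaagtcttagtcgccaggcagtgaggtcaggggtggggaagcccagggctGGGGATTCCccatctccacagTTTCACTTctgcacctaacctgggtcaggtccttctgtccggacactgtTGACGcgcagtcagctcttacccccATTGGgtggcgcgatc
H2-D1, chr17:35262914-35263093, plus strand: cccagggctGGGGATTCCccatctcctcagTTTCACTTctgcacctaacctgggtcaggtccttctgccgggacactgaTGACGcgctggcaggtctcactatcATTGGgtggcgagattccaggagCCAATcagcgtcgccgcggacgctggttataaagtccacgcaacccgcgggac
H2-Q7, chr17:35438975-35439154, plus strand: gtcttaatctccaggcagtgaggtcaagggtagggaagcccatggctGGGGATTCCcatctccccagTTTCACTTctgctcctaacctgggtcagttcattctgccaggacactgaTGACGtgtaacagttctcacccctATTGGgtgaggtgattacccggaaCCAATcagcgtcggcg
H2-Q10, chr17:35469909-35470088, plus strand: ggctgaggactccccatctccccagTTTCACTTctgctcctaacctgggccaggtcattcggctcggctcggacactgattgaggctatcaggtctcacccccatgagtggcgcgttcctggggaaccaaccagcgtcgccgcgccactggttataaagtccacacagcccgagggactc
B2m, chr2:122147507-122147686, plus strand: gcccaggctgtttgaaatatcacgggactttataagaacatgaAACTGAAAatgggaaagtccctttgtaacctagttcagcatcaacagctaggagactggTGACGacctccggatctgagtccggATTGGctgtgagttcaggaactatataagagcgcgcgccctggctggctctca

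The motifs were searched in the full windows, 250 bases before to 50 bases after the start site. GGGGATTCC was present in 4 of the 9 member windows, those of H2-K1, H2-D1, H2-Q6 and H2-Q7, and in 0.25% of all 32851 RefSeq promoter windows. AANNGAAA was present in 7 of the 9, all except Tap1 and Tapbp, against 23.9% of all windows. TGACG was present in 6 of the 9 against 20.8%, and ATTGG in 9 of the 9 against 37.4%. In part of the members the order was shared too. TGACG began 70 bases after GGGGATTCC in H2-K1 and H2-D1 and 69 bases after it in H2-Q7. ATTGG began 25 bases after TGACG in H2-K1, H2-D1 and B2m and 24 bases after it in H2-Q7. In the other 2 of the 6 members with the CRE-like core, a Y box came before it. In H2-Q4 the Y boxes lay at -79 and, on the other strand, -55 from the start site and the core at -73. In Tap1 the Y box lay at -222 and the core at -86. The H2-Q10 window held AANNGAAA and none of the other 3 motifs in these letters, which says nothing of other letters or of the factors. A match of letters is a description and not a bound site, and these heavy chain windows are related by descent.

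Library totals lay between 26304526 and 31370714 counts. The genotype check followed the labels for Cdkn1a, a p53 target, with normalized read counts (counts divided by DESeq2 size factors) of 138 to 188 in LP+/+, 75.0 and 99.97 in LPfl/+ and 14.5 to 27.5 in LP245/+. Trp53 itself was 202 to 258 in LP+/+, 127 and 178 in LPfl/+ and 194 to 316 in LP245/+, and the counts do not separate the alleles. The library numbers of the labels fall into 2 series, the first with all 3 LP245/+ livers and LP+/+ replicates 2 and 3, the second with both LPfl/+ livers and LP+/+ replicate 1. No series held both LP245/+ and LPfl/+, so a fit with series as a factor compares them only through the LP+/+ livers, of which 1 is in the second series. In the main fit, which has no such factor, a difference between LP245/+ and LPfl/+ cannot be told apart from one between the series. The bulk measurement cannot tell fewer cells of a type from less RNA per cell. The markers of hepatocytes summed to between 3083060 and 4405430 normalized counts, and every marker list of leukocytes, Kupffer cells, endothelium and cholangiocytes was above 0 in every liver.

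B2m was the most abundant member and H2-Bl the least when levels were set per kilobase of exon. The mean over the 8 livers was 53485 normalized counts per kilobase for B2m, 7731 for H2-K1, 3899 for H2-D1 and 1422 for H2-T23. The ranges of these 4 genes over the livers did not overlap, and they ran from 44649 to 62999 for B2m, 6314 to 9163 for H2-K1, 3089 to 5123 for H2-D1 and 1074 to 1737 for H2-T23. Below them stood Tapbp at 477, H2-Q6 at 279, H2-Q4 at 182, H2-Q7 at 160.0, Tap1 at 124 and H2-Bl at 58.1 normalized counts per kilobase. Among these lower genes each range overlapped the next, for example 401 to 551 for Tapbp and 206 to 430 for H2-Q6.

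The secreted H2-Q10, which is no member, stood above every membrane-bound heavy chain, at 11104 normalized counts per kilobase. It held between 47.4% and 56.7% of all counts on the 32 class I heavy chain genes of chromosome 17, and H2-K1 and H2-D1 together held between 33.6% and 41.4%. The B2m level per kilobase was 1.77 to 2.34 times the summed level of all heavy chains over the 8 livers, and 3.08 to 4.10 times that sum without H2-Q10. The 32 genes together took between 0.284% and 0.355% of a library. Of the 32, 16 passed the filter on low counts and 10 had no count in any liver.

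**Figure D1:**
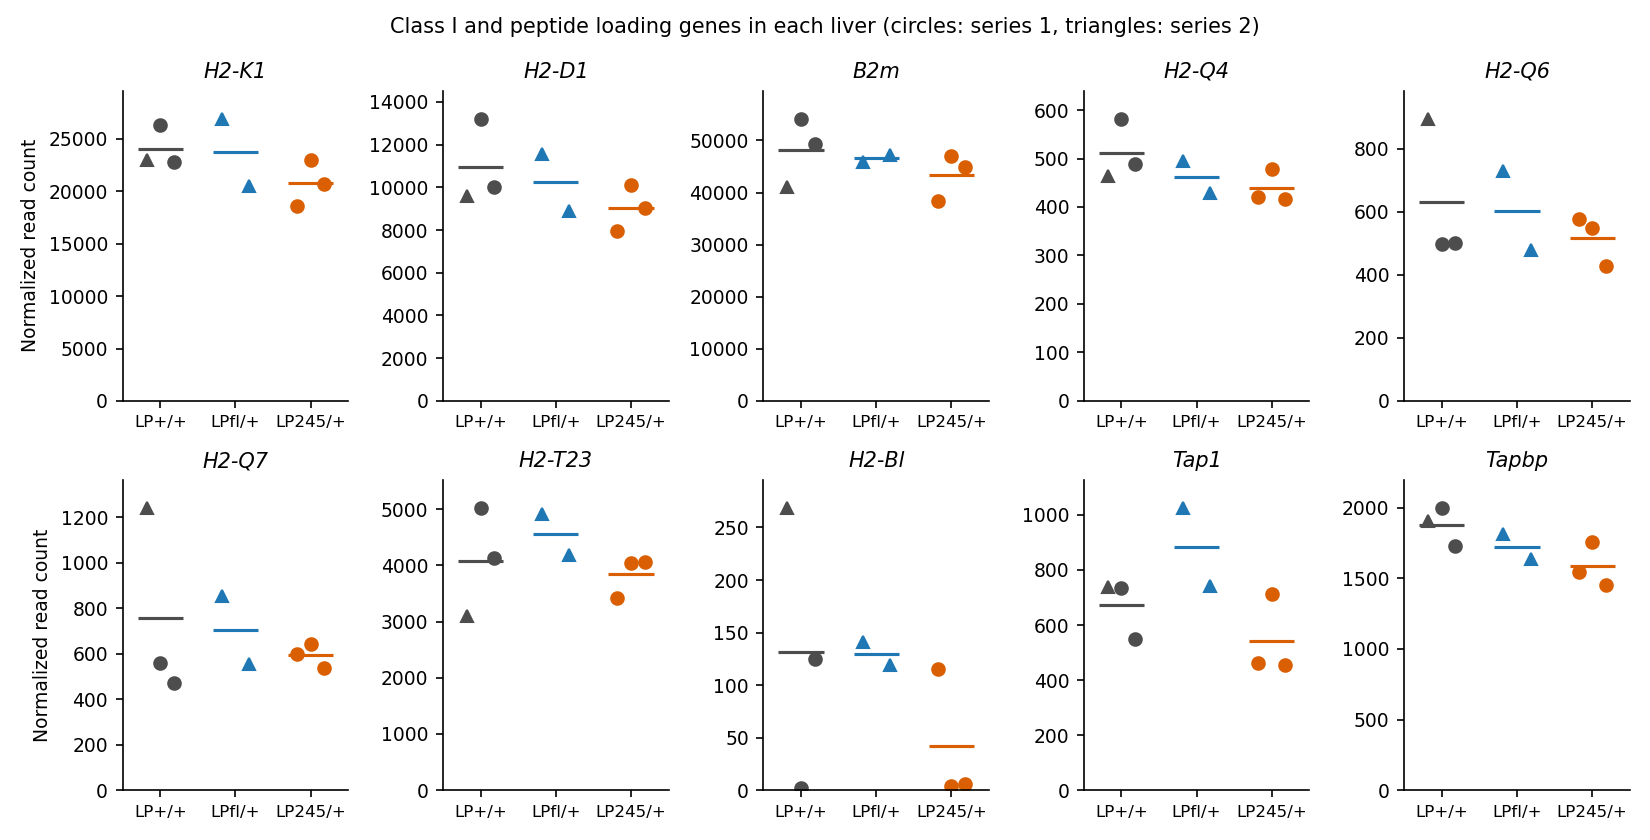
Normalized read counts (vertical axes, from 0) of the 10 genes in each liver by genotype (horizontal axes), with circles for the first series of library numbers, triangles for the second and lines for group means. The genotypes overlap in most panels, while H2-Bl falls close to 0 in LP+/+ replicate 2 and LP245/+ replicates 2 and 3.

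The classical heavy chains and their light chain were slightly lower on average in LP245/+ than in LP+/+ livers, with overlapping groups. H2-K1 (chr17:33996017-34000347 on GRCm38, as are all gene positions here) measured 22962, 26292 and 22752 normalized counts in LP+/+, 26921 and 20540 in LPfl/+, then 18552, 22974 and 20723 in LP245/+. The highest LP245/+ liver exceeded the lowest LP+/+ liver, and the mean was 24002 ± 1986 (SD, n = 3) in LP+/+ against 20750 ± 2211 (SD, n = 3) in LP245/+. The log2 fold change was -0.20 (SE 0.14, edgeR quasi-likelihood test, adjusted p = 0.847), a difference within the spread of the livers.

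H2-D1 (chr17:35262730-35267499) encodes the second classical heavy chain of the table and followed H2-K1 closely. It measured 9604, 13212 and 10008 normalized counts in LP+/+, 11584 and 8902 in LPfl/+, then 7967, 10121 and 9043 in LP245/+. LP+/+ replicate 2 was the highest liver and LP245/+ replicate 1 the lowest. LP245/+ against LP+/+ gave a log2 fold change of -0.26 (SE 0.16, adjusted p = 0.842). The ratio of H2-D1 to H2-K1 normalized counts lay between 0.418 and 0.441 in 7 livers and was 0.503 in LP+/+ replicate 2.

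B2m (chr2:122147686-122153083), the only member outside chromosome 17, is needed for the heavy chains to fold and leave the endoplasmic reticulum. It measured 41015, 54179 and 49251 normalized counts in LP+/+, 45833 and 47294 in LPfl/+, then 38398, 47011 and 44997 in LP245/+. The lowest LP+/+ liver lay below 2 of the 3 LP245/+ livers. The log2 fold change was -0.14 (SE 0.14, adjusted p = 0.896) in LP245/+ and -0.04 (SE 0.15, adjusted p = 0.971) in LPfl/+, both against LP+/+. B2m and Tapbp varied least of the members, with a coefficient of variation over the 8 livers of 10.5% each, against 37.0% for H2-Q7 and 93.9% for H2-Bl.

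H2-Q7 and H2-Q6 of the Q region varied more between the livers of LP+/+, and between those of LPfl/+, than between the genotype means. H2-Q7 (chr17:35439155-35443773) encodes a nonclassical heavy chain known as Qa-2, and H2-Q6 (chr17:35424850-35430055) is its close relative. H2-Q7 measured 1241, 557 and 471 normalized counts in LP+/+, 853 and 556 in LPfl/+, then 600.4, 644 and 536 in LP245/+. H2-Q6 measured 896, 499.5 and 499.7 in LP+/+, 731 and 478 in LPfl/+, then 578, 548 and 429.7 in LP245/+. LP+/+ replicate 1 was the highest liver for both genes and LPfl/+ replicate 1 the next.

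The log2 fold change of LP245/+ against LP+/+ was -0.34 for H2-Q7 (SE 0.32, adjusted p = 0.888) and -0.27 for H2-Q6 (SE 0.25, adjusted p = 0.883). Without LP+/+ replicate 1 these values were 0.22 and 0.07, so their sign rested on that liver. Of the 76-base windows in the transcripts of H2-Q6, 9.65% also occur in H2-Q7, and 20.6% occur in some other gene, so the split of reads between these relatives is uncertain. H2-Q4 (chr17:35379617-35385290), a further Q region heavy chain gene, was steadier, at 464, 582 and 489 normalized counts in LP+/+, 494 and 429 in LPfl/+, then 422, 479 and 416 in LP245/+. Its log2 fold change was -0.21 (SE 0.12, adjusted p = 0.835) in LP245/+ against LP+/+.

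H2-T23 (chr17:36029773-36032855) encodes Qa-1, which presents leader peptides of other class I chains to NK cell receptors. It measured 3102, 5019 and 4124 normalized counts in LP+/+, 4919 and 4181 in LPfl/+, then 3411, 4046 and 4065 in LP245/+. Every LP245/+ liver lay below both LPfl/+ livers, and the LP+/+ livers spanned the whole range. For LP245/+ the log2 fold change was -0.24 against LPfl/+ (SE 0.19, adjusted p = 0.770) and -0.08 against LP+/+ (SE 0.17, adjusted p = 0.960). Without LP+/+ replicate 2 the second value was 0.09.

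Tap1 (chr17:34187553-34197225) had the widest differences among the members other than H2-Bl in both comparisons with LPfl/+, while H2-Q7 had the widest in LP245/+ against LP+/+. It measured 739, 736 and 549 normalized counts in LP+/+, 1025 and 742 in LPfl/+, then 461, 713 and 454 in LP245/+. Both LPfl/+ livers lay above all 3 LP+/+ livers, the lower of them by a narrow margin, and above all 3 LP245/+ livers. The log2 fold change was -0.70 in LP245/+ against LPfl/+ (SE 0.22, unadjusted p = 0.0113, adjusted p = 0.450 in edgeR over all genes), 0.40 in LPfl/+ against LP+/+ (SE 0.22, adjusted p = 0.757) and -0.30 in LP245/+ against LP+/+ (SE 0.20, adjusted p = 0.846). None of these passed the cutoff, set at a log2 change of 1 or more in size with an adjusted p no higher than 0.05. The comparison of LP245/+ with LPfl/+ is also one between the series of library numbers, and the values cannot separate them.

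Over the alternatives the adjusted p of Tap1 in LP245/+ against LPfl/+ ran from 0.0683 to 0.995, and without LPfl/+ replicate 1 the log2 fold change was -0.45. That liver also held the highest count of Ptprc, the pan-leukocyte marker, at 764 normalized counts, where the other 7 livers held 438 to 657. The 6 macrophage and Kupffer cell markers summed to 9725 normalized counts in it and to between 7093 and 9207 in the others, with all 6 detected. Clec4f, at 3805 in it and 2382 to 3262 in the others, made up most of that excess. Adgre1 (1169), Cd68 (335) and Timd4 (366) were also highest in that liver. Lyz2 was lowest in it (1809), and Csf1r (2241) was below LP+/+ replicate 2 (2273). Their part in the Tap1 result was not tested.

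Tapbp (chr17:33915899-33929292), whose product tapasin holds class I molecules until a peptide binds, measured 1909, 1999 and 1727 normalized counts in LP+/+, 1816 and 1636 in LPfl/+, then 1548, 1759 and 1456 in LP245/+. One LP245/+ liver exceeded 1 LP+/+ liver and the others were lower. The log2 fold change of LP245/+ against LP+/+ was -0.23 (SE 0.11, unadjusted p = 0.0548, adjusted p = 0.831), the smallest adjusted p of the members in that comparison. Of the Tapbp windows, 17.4% also occur in the overlapping predicted gene Gm19412.

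Read together, the members had the same sign in LP245/+ without any of them passing the cutoff. Of the 9 members other than H2-Bl, all 9 had a log2 fold change below 0 in LP245/+ against LP+/+, with a median of -0.23 and a range of -0.34 to -0.08, where 49.4% of the genes tested were below 0 and their median was 0.0029. Against LPfl/+, all 9 were again below 0 (background 49.2%), with a median of -0.19. In LPfl/+ against LP+/+, 7 of the 9 were below 0 (background 50.2%), with a median of -0.06. The first 2 comparisons share the LP245/+ livers, and the members were selected on these livers and share a chromosome and regulators, so the counts of signs are a description.

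Past the cutoff were 0 of the 9 members in LP245/+ against LP+/+ (background 0.00606%, the gene Cdkn1a), 0 in LPfl/+ against LP+/+ (background 0%) and 0 in LP245/+ against LPfl/+ (background 0%). In the 3 comparisons in that order, 978, 1137 and 1404 genes of the whole table had an unadjusted p below 0.05 in edgeR, and DESeq2 called 10, 9 and 54 genes. At an unadjusted p below 0.05, 0 members were lower in LP245/+ than in LP+/+ (background 2.38%), and 1 member, Tap1, was lower in LP245/+ than in LPfl/+ (background 4.44%). No member had LP245/+ and LP+/+ groups that did not overlap, where 5.08% of genes had every LP245/+ liver below and 6.47% above. Tap1 had both LPfl/+ livers above every LP+/+ liver (background 12.6%). Tap1 and H2-T23 had every LP245/+ liver below both LPfl/+ livers (background 13.3%). With 9 members, 1 and 2 genes are 11.1% and 22.2% of the list.

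**Figure D2:**
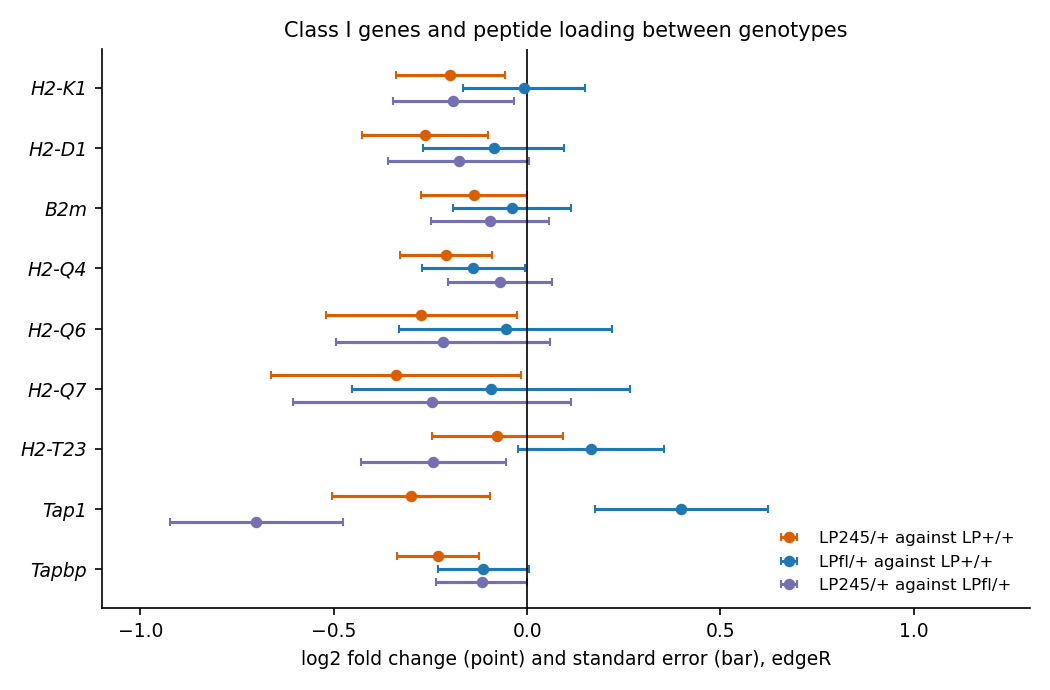
Log2 fold changes (points, horizontal axis) with standard errors (bars) from edgeR for the 9 members other than H2-Bl in 3 comparisons of genotypes. The LP245/+ against LP+/+ points lie between -0.34 and -0.08, and Tap1 reaches -0.70 in LP245/+ against LPfl/+.

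Within a series of library numbers most of these signs were the same, but not all. H2-Q6 and H2-Q7 turned to above 0 in the first series, and H2-K1, H2-D1 and B2m in the second. In the first series, where 3 LP245/+ livers met LP+/+ replicates 2 and 3, the log2 ratio of mean normalized counts was -0.24 for H2-K1, -0.36 for H2-D1, -0.25 for B2m, -0.29 for H2-Q4, -0.25 for H2-T23, -0.24 for Tap1 and -0.23 for Tapbp. It was 0.05 for H2-Q6 and 0.21 for H2-Q7. In the second series, with both LPfl/+ livers and LP+/+ replicate 1 alone, it was 0.26 for Tap1, 0.55 for H2-T23, 0.18 for B2m, 0.09 for H2-D1 and 0.05 for H2-K1. The same ratio was -0.82 for H2-Q7, -0.57 for H2-Q6, -0.15 for Tapbp and -0.01 for H2-Q4. These ratios are given without a test of their own. In the fit with library series as a factor, the log2 fold change of LP245/+ against LP+/+ was -0.23 for H2-K1 (adjusted p = 0.846 in edgeR) and -0.35 for H2-D1 (adjusted p = 0.780), and no other member had a smaller adjusted p than the 0.771 of H2-Q4.

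By liver, most members stood on the same side of their means in some livers and split in others. The median log2 deviation of the 9 members from their own means was 0.26 in LPfl/+ replicate 1 and 0.21 in LP+/+ replicate 2, the highest livers, and -0.24 in LP245/+ replicate 1 and -0.18 in LP245/+ replicate 3, the lowest. LP245/+ replicate 2 stood at 0.04, with 2 of the 9 members below their mean, against 8 and 9 of the 9 in the other LP245/+ livers. LP+/+ replicates 1 and 3 stood at 0.02 and 0.0044, with 4 of the 9 below in each, and LPfl/+ replicate 2 at -0.13. Without LPfl/+ replicate 1, the log2 fold changes of LP245/+ against LPfl/+ turned to 0.02 for H2-K1, 0.03 for H2-D1, 0.04 for H2-Q4, 0.12 for H2-Q6 and 0.10 for H2-Q7. In LPfl/+ against LP+/+, the signs of H2-K1, H2-D1 and B2m turned without LP+/+ replicate 2, to 0.05, 0.06 and 0.04. In that comparison H2-Q6 and H2-Q7 turned without LP+/+ replicate 1, to 0.28 and 0.46. Without LPfl/+ replicate 2, H2-K1, H2-D1, H2-Q6 and H2-Q7 turned to 0.16, 0.08, 0.21 and 0.17.

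H2-Bl (chr17:36080115-36084223, minus strand) is annotated as a polymorphic pseudogene, a class of gene that is intact in some strains and broken in others. Its raw counts came to 278, 2 and 133 in LP+/+, 139 and 118 in LPfl/+, then 112, 4 and 6 in LP245/+. With on set at 10 or more counts and off at 3 or fewer, 5 livers were on, 1 was off (LP+/+ replicate 2) and 2 lay between (LP245/+ replicates 2 and 3). LP+/+ replicate 1, at 278, stood apart above the 4 other livers that were on, which held 112 to 139 counts. Because H2-Bl was chosen for this pattern its levels are given with no test.

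The 3 livers low in H2-Bl were all of the first series, 3 of its 5 livers, against 0 of 3 in the second, and the part of the series was not tested. High and low livers occurred in both LP+/+ and LP245/+, and the LP+/+ pair labelled with the same Trp53fl/+ allele held the highest and the lowest count of all 8. In the first series LP+/+ replicate 3 and LP245/+ replicate 1 were on, and in the second series all 3 livers were on. The library totals of the 3 low livers were 30331374, 28310329 and 29846962 counts, within the range of the others. At these depths 3 counts are 9.56e-06% to 1.14e-05% of a library, a floor that covers counting error only. Of the H2-Bl windows of 76 bases, 3.55% also occur in another gene.

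The other heavy chain genes did not share this pattern as a group. Of the 15 other heavy chain genes of chromosome 17 that passed the filter, 2 had their lowest normalized counts in the same 3 livers, H2-T10 and H2-T24, where 2.18% of all genes tested did. H2-T10 (chr17:36115876-36121465), a nonclassical gene that is also annotated as a polymorphic pseudogene, has its lower coordinate 35.8 kb above that of H2-Bl. Its raw counts came to 256, 63 and 149 in LP+/+, 180 and 104 in LPfl/+, then 183, 70 and 49 in LP245/+, so it was lower and not off in those livers. H2-T10 shares 35.6% of its windows with other genes, 15.5% with H2-T22, so the assignment of reads from these windows is uncertain.

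H2-T24 (chr17:36005695-36020560) lies on the other side, at -74.4 kb by the same measure and shares 0.413% of its windows with other genes. Its raw counts came to 378, 270 and 321 in LP+/+, 350 and 310 in LPfl/+, then 278, 167 and 159 in LP245/+. LP+/+ replicate 2 was only just below LP245/+ replicate 1 there, so the separation that H2-Bl showed was not repeated. H2-T3, a gene of the intestinal epithelium that did not pass the filter, had 0 counts in the same 3 livers and 2 to 6 counts in the rest. H2-T23 and H2-T22, the neighbours at -50.3 and -43.0 kb, were highest in LP+/+ replicate 2, at 5226 and 2861 raw counts.

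**Figure D3:**
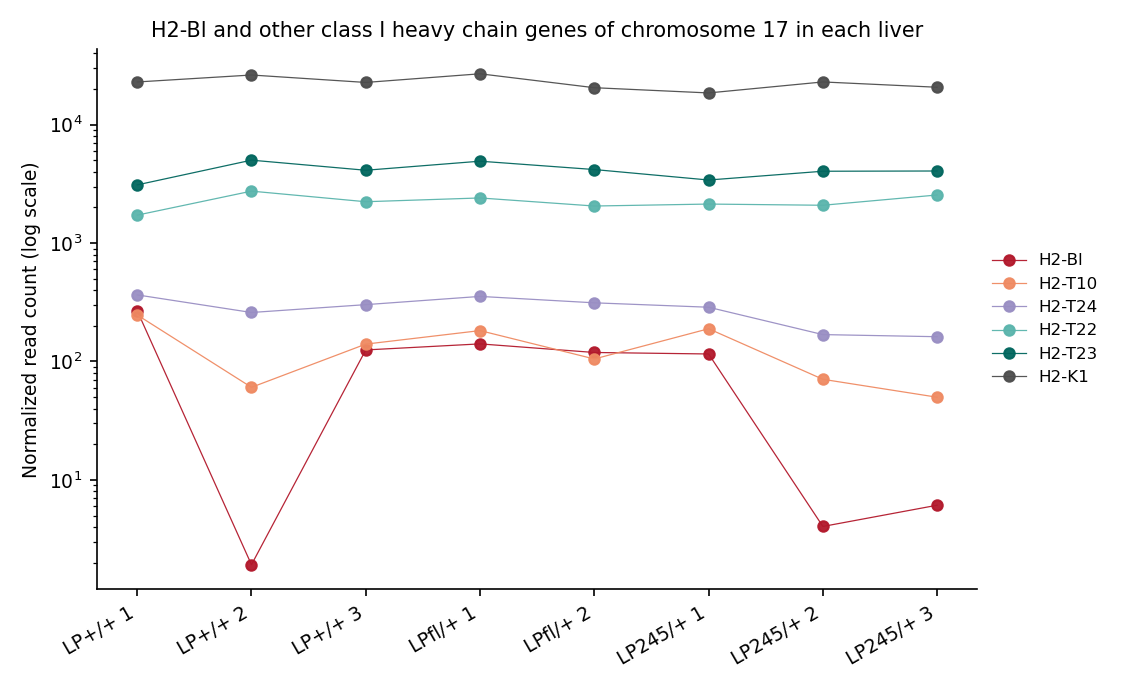
Normalized read counts (vertical axis, log scale) of H2-Bl and 5 other class I heavy chain genes in each of the 8 livers (horizontal axis), with lines joining the points of a gene only to guide the eye. H2-Bl falls to between 1.92 and 6.11 in 3 livers, H2-T10 is lowest in the same livers, and H2-T22, H2-T23 and H2-K1 are not.

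By the same thresholds, 4 of the 32 heavy chain genes were on in some livers and off in others, namely H2-Bl, H2-Q2, H2-T-ps and H2-M2. H2-Q2 had raw counts of 10, 0 and 0 in LP+/+, 8 and 8 in LPfl/+, then 4, 8 and 5 in LP245/+. H2-T-ps, a pseudogene, had 25, 9 and 12 in LP+/+, 11 and 8 in LPfl/+, then 13, 3 and 2 in LP245/+. H2-M2 had 6, 7 and 2, then 7 and 0, then 4, 10 and 4. The highest count of these 3 genes was 25, so apart from H2-Bl the change from on to off spans few counts.

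The genes most like H2-Bl in log2 CPM (reads scaled to library size) over the 8 livers were Rplp2 (Pearson r = 0.964), Col11a2 (r = 0.961), 2310043P16Rik (r = 0.945), Nlrp6 (r = 0.939), Fsbp (r = 0.936) and Col27a1 (r = 0.933). The most opposite were Ppwd1 (r = -0.962), Kpna2 (r = -0.957), Trim36 (r = -0.937), Gm839 (r = -0.929), Nat8f2 (r = -0.925) and Nln (r = -0.925). These values describe 8 points that share libraries and are the extremes of 16495 genes. Rplp2, a ribosomal protein gene, shows how small the swings were, at 2253, 1719 and 2088 raw counts in LP+/+, 2042 and 2001 in LPfl/+, then 1911, 1680 and 1569 in LP245/+. Col11a2, a collagen gene of the same chromosome (chr17:34039437-34066685), held 5 to 19 raw counts. Of the 50 genes most like H2-Bl, 6 were on chromosome 17 (12%, against 4.45% of all genes tested) and 1, H2-T10 at r = 0.916, within 1 Mb. Of the 6 genes highest by Pearson r, 1 was among the 50 highest by Spearman's rho, and rho was 0.476 for Nlrp6 and 0.690 for Col11a2. By Spearman's rho, 2 of the 50 were on chromosome 17 and 0 within 1 Mb.

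Beyond the members, 26 further class I and class I-like genes were listed, of which 22 were in the table and 14 passed the filter. None passed the cutoff in any comparison, and their median log2 fold changes were -0.07 in LP245/+ against LP+/+, -0.08 in LPfl/+ against LP+/+ and 0.01 in LP245/+ against LPfl/+. The widest value belonged to Cd1d2, a relative of the lipid-presenting Cd1d1 that is annotated, like H2-Bl, as a polymorphic pseudogene. Its raw counts came to 4, 6 and 7 in LP+/+, 5 and 3 in LPfl/+, then 230, 203 and 7 in LP245/+. It was thus high in LP245/+ replicates 1 and 2 and low in LP245/+ replicate 3 and in every other liver, and the log2 fold change of LP245/+ against LP+/+ was 4.78 (SE 1.02, adjusted p = 0.795 in edgeR). Those are not the livers that set H2-Bl apart, since LP245/+ replicate 1 was on for H2-Bl and replicate 2 was not. Its neighbour on chromosome 3, Cd1d1, was 4495 to 6354 raw counts in all 8 livers.

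H2-K2, a pseudogene beside H2-K1, measured 65.7, 71.1 and 71.5 normalized counts in LP+/+, 92.2 and 49.5 in LPfl/+, then 107, 102 and 115 in LP245/+. All LP245/+ livers were above the others, and the log2 fold change against LP+/+ was 0.65 (SE 0.23, adjusted p = 0.795). Hfe, the class I-like regulator of iron uptake, measured 1480, 1724 and 1337 normalized counts in LP+/+, 882 and 1081 in LPfl/+, then 1156, 1275 and 1259 in LP245/+. The genotypes did not overlap, and its log2 fold changes against LP+/+ were -0.62 in LPfl/+ (SE 0.13, adjusted p = 0.697) and -0.29 in LP245/+ (SE 0.12, adjusted p = 0.818). In LP245/+ against LP+/+, 2 of the 14 genes had every LP245/+ liver above (14.3%, background 6.47%) and 1 below (7.14%, background 5.08%). In LPfl/+ against LP+/+, 3 of the 14 genes had every LPfl/+ liver below (21.4%, background 12.4%) and 1 above (7.14%, background 12.6%). In LP245/+ against LPfl/+, 4 of the 14 had every LP245/+ liver above (28.6%, background 12.1%) and 1 below (7.14%, background 13.3%). H2-T-ps had log2 fold changes of -1.23 (SE 0.67, adjusted p = 0.831) in LP245/+ and -0.60 (SE 0.72, adjusted p = 0.887) in LPfl/+, on few counts. H2-Q10 measured 53712, 53952 and 49554 normalized counts in LP+/+, 44060 and 43657 in LPfl/+, then 42541, 48560 and 50197 in LP245/+. Its log2 fold change in LPfl/+ against LP+/+ was -0.25 (SE 0.13, adjusted p = 0.755).

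No gene that cuts, carries or fits the peptides passed the cutoff between genotypes. All 22 listed genes of peptide supply and loading passed the filter, 0 passed the cutoff, and the median log2 fold change was -0.02 in LP245/+ against LP+/+ and -0.01 in LPfl/+ against LP+/+. In LPfl/+ against LP+/+, 5 of the 22 (22.7%, background 12.4%) had every LPfl/+ liver below and 0 above. In LP245/+ against LPfl/+, 3 of the 22 (13.6%, background 13.3%) had every LP245/+ liver below and 2 (9.09%, background 12.1%) above. In LP245/+ against LP+/+, 0 of the 22 had groups that did not overlap (background 5.08% below and 6.47% above), and values ran from -0.13 for Psme3, a proteasome activator subunit, to 0.17 for Tpp2, a cytosolic peptidase. Psme1, a subunit of the interferon-inducible proteasome activator, was at -0.12 (SE 0.11, adjusted p = 0.883).

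In LPfl/+ against LP+/+ the immunoproteasome subunits Psmb8 and Psmb9 both had a log2 fold change of 0.34 (adjusted p = 0.747 and 0.810), and Psmb5, the constitutive counterpart of Psmb8, one of -0.62 (SE 0.27, adjusted p = 0.721). Psmb8 measured 357, 407 and 296 normalized counts in LP+/+, 511 and 379 in LPfl/+, then 326, 352 and 347 in LP245/+. Psmb5 measured 383, 750.1 and 525 in LP+/+, 352 and 360.5 in LPfl/+, then 476, 476 and 726 in LP245/+. Both LPfl/+ livers were the lowest for Psmb5, and the second series supplied the 3 lowest values, LP+/+ replicate 1 included. Psmb9 overlaps the start of Tap1 on the opposite strand, and 2.38% of the Tap1 windows occur in Psmb9 transcripts. Tap2, the partner subunit of Tap1, had a log2 fold change of -0.09 (SE 0.21, adjusted p = 0.951) in LP245/+ against LPfl/+, where Tap1 had -0.70.

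Among 22 listed regulators of class I, 21 passed the filter and 0 passed the cutoff, and the medians were -0.04 in LP245/+ and 0.01 in LPfl/+, both against LP+/+. In LPfl/+ against LP+/+, 1 of the 21 had both LPfl/+ livers above (4.76%, background 12.6%) and 5 below (23.8%, background 12.4%). In LP245/+ against LP+/+, 2 had every LP245/+ liver above (9.52%, background 6.47%) and 1 below (4.76%, background 5.08%). Against LPfl/+, 5 had every LP245/+ liver above (23.8%, background 12.1%) and 4 below (19%, background 13.3%). Nlrc5, the class I coactivator, measured 692, 701 and 579.7 normalized counts in LP+/+, 953 and 788 in LPfl/+, then 674, 701 and 525 in LP245/+. Both LPfl/+ livers were above all others, with a log2 fold change of 0.41 (SE 0.15, adjusted p = 0.700) against LP+/+. Irf1, the interferon-induced activator, was at 0.28 (SE 0.18, adjusted p = 0.786) in the same comparison. Irf2, which binds the same core as Irf1, was higher in every LP245/+ liver than in any other, at 626, 705 and 799.9 in LP+/+, 805 and 662 in LPfl/+, then 1226, 908 and 832 in LP245/+ (log2 fold change 0.49 against LP+/+, SE 0.16, adjusted p = 0.795). Nfya, a subunit of the factor that binds the Y box, had a log2 fold change of 0.40 in LP245/+ (SE 0.17, adjusted p = 0.831) and -0.30 in LPfl/+ (SE 0.20, adjusted p = 0.790). Rfxank, of the RFX complex, was at -0.24 (SE 0.21, adjusted p = 0.883) in LP245/+.

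Interferon-gamma responders outside the pathway had medians of the same sign as Tap1 in each comparison. All 12 passed the filter and 0 passed the cutoff. Their median log2 fold change was 0.44 in LPfl/+ against LP+/+, with 10 of 12 above 0, where 50.2% of all genes were below 0. It was -0.21 in LP245/+ against LP+/+, with 11 of 12 below 0 (background 49.4%). In LPfl/+ against LP+/+, 0 of the 12 had both LPfl/+ livers above every LP+/+ liver (background 12.6%) and 0 below (background 12.4%). In LP245/+ against LPfl/+ the median was -0.55, with 5 of 12 lower at an unadjusted p below 0.05, against the background of 4.44% above. There 5 of the 12 had every LP245/+ liver below both LPfl/+ livers (41.7%, background 13.3%) and 0 above (background 12.1%). Genotype cannot be told apart from the series of library numbers in this comparison. Cxcl9, a chemokine that draws T cells, measured 133, 294 and 152 normalized counts in LP+/+, 598 and 220.1 in LPfl/+, then 209, 181 and 129 in LP245/+. LPfl/+ replicate 1 was well above every other liver, and the log2 fold change of LPfl/+ against LP+/+ was 1.09 (SE 0.43, adjusted p = 0.704).

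Tgtp1, an interferon-induced GTPase, measured 46.4, 84.5 and 46.1 normalized counts in LP+/+, 166 and 48.5 in LPfl/+, then 46.5, 32.3 and 23.4 in LP245/+. Here too LPfl/+ replicate 1 was the high liver, while LPfl/+ replicate 2 lay within the range of LP+/+. Tgtp1 had a log2 fold change of 0.87 in LPfl/+ (SE 0.49, adjusted p = 0.757) and -0.78 in LP245/+ (SE 0.47, adjusted p = 0.839), both against LP+/+. Gbp2, a guanylate-binding protein gene, had 0.57 (SE 0.35, adjusted p = 0.776) in LPfl/+. Its normalized counts were 477 in LPfl/+ replicate 1 and 215 in LPfl/+ replicate 2, the latter below the LP+/+ mean of 235. Gbp3, Gbp6, Igtp and Irgm1 were instead highest in LP+/+ replicate 2, at 387, 152, 989 and 2831 normalized counts. In LPfl/+ replicate 1 these genes were at 360, 136, 830 and 2136. All other listed responders were highest in LPfl/+ replicate 1. Irgm1 and Cxcl10 had log2 fold changes of -0.45 (SE 0.20, adjusted p = 0.831) and -0.44 (SE 0.35, adjusted p = 0.870) in LP245/+. The leukocyte and macrophage marker values given with Tap1 belong to LPfl/+ replicate 1, and their part in the values of the responders was not tested.

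**Figure D4:**
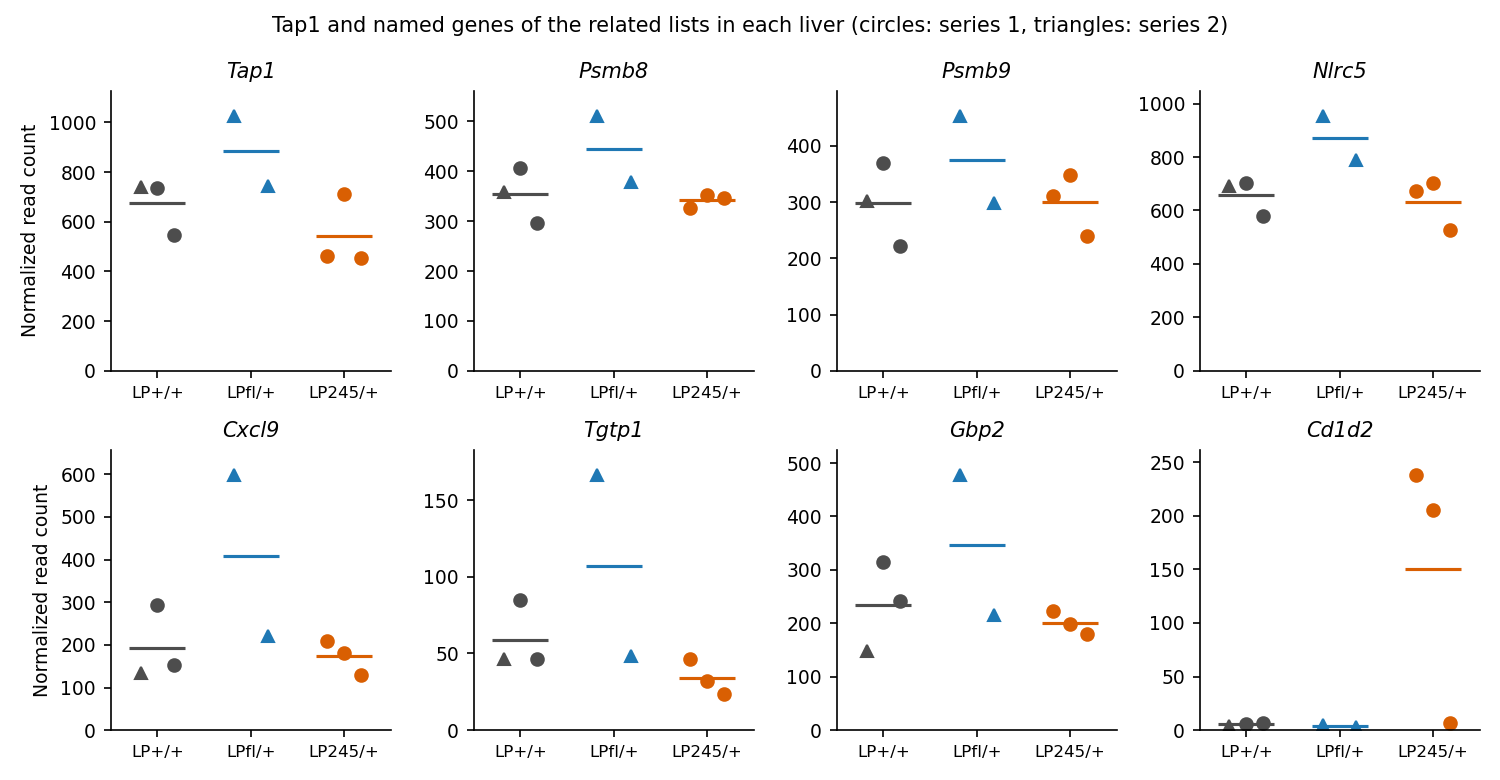
Normalized read counts (vertical axes, from 0) by genotype (horizontal axes) of Tap1, the immunoproteasome subunits Psmb8 and Psmb9, the coactivator Nlrc5, 3 interferon-gamma responders and Cd1d2, with circles for the first series of library numbers, triangles for the second and lines for group means. LPfl/+ replicate 1 is the highest liver in every panel except Cd1d2, which is high in LP245/+ replicates 1 and 2. The 3 responders drawn had the largest absolute log2 fold changes of their list in LPfl/+ against LP+/+. Of those not drawn, Gbp3, Gbp6, Igtp and Irgm1 were highest in LP+/+ replicate 2.

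Lymphocyte markers were at low counts. Cd8a and Cd8b1, the coreceptor chains of the T cells that read class I, were at most 13.2 and 12.2 normalized counts in any liver. The 6 T cell markers summed to 64.9 to 182 normalized counts in LP+/+, 105 and 116 in LPfl/+, then 39.4 to 97.1 in LP245/+, and the 4 NK cell markers to 16.9 to 30.7, 33.4 and 37.4, and 19.2 to 43.4. Much of the T cell sum was Cd4, the coreceptor of T cells that read class II, at 143 of the 182 in LP+/+ replicate 1. The 4 B cell markers summed to 76.3 to 90.3 in LP+/+, 49.6 and 52.5 in LPfl/+, and 57.9 to 96.7 in LP245/+. LPfl/+ thus lay below LP+/+ for the B cell list and above it for the NK cell list, with no overlap, and the part of either in the LPfl/+ values of Tap1 and the interferon-gamma responders was not tested. Between LP+/+ and LP245/+ all 9 marker lists overlapped.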

How the data were processed

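Total RNA from 8 livers was sequenced on a HiSeq4000 as 76-bp read pairs from TruSeq stranded libraries. Reads were aligned by the authors to GRCm38 with STAR and summarized per gene on GENCODE annotation, and the authors deposited the raw read counts of 49585 genes, unnormalized. The GENCODE release and the strand column are not given in the sources used here, so reads of overlapping or antisense genes may be mixed. Gene symbols, positions and exon lengths came from a GENCODE M21 table by identifier, with 49326 identifiers matched and 259 without a symbol. All columns were assigned to samples.

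Counts were fitted in edgeR 4.0.16 (R 4.3.3; TMM, filterByExpr, quasi-likelihood test, Benjamini-Hochberg adjustment over 16496 genes) with 1 coefficient per genotype. The study's cutoff was kept, a log2 change of 1 or more in size with an adjusted p no higher than 0.05. Normalized read counts are counts divided by the size factors of DESeq2 1.42.0 (0.968 to 1.063). Mean values are over livers, and the labels name each liver as its own sample. Totals of 26304526 to 31370714 counts put the floor of 3 counts at 9.56e-06% to 1.14e-05% of a library. The fit was tested on simulated data before use. Alternatives were DESeq2, other scalings and filters, only the groups compared, the replicate number or the library series as a factor, and leaving out each liver.

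The members and lists were chosen with earlier results of these data known. Named were the members, any gene of the other lists past the cutoff, the 3 genes of each list with the largest absolute log2 fold change in LP245/+ and in LPfl/+ against LP+/+, H2-Q10, the heavy chains on in some livers (at least 10 counts) and off in others (at most 3), and the 6 genes most and 6 least like H2-Bl. Tap2, Cd1d1, H2-T3, H2-T10, H2-T22 and H2-T24 were named after their values were seen. Sequence windows of 76 bases shared between the transcripts of different genes were counted to show where reads could be split between relatives.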

Additional observations from a re-analysis of the deposited data

How the results depend on the processing

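None of the 16 alternatives brought any of the 9 members other than H2-Bl past the cutoff. H2-Bl was in the fit, but its test is not given because it was chosen for its pattern. The number of genes past the cutoff in the whole table moved most. It was 1 in LP245/+ against LP+/+, 0 in LPfl/+ against LP+/+ and 0 in LP245/+ against LPfl/+, in this order below. It was 10, 9 and 54 with DESeq2, 20, 14 and 122 with no filter on low counts, and 3, 3 and 10 with library series as a factor. With only the groups compared in the fit it was 51 in LP245/+ against LPfl/+. Leaving out each liver gave 0 to 5, 0 to 59 and 0 to 47, with 59 and 47 both without LP+/+ replicate 1. The median log2 fold change of the 10 members, H2-Bl included, was -0.25, -0.05 and -0.20 and ran from -0.31 to -0.17, -0.21 to 0.13 and -0.36 to -0.011 when a liver was left out. It was 0.13 in LPfl/+ against LP+/+ without LPfl/+ replicate 2 and -0.21 without LPfl/+ replicate 1, and -0.011 in LP245/+ against LPfl/+ without LPfl/+ replicate 1. Of the log2 fold changes of single members under the alternatives, 405 kept their sign and side of the cutoff. Another 28 values did not, of which 1 was the number of genes near H2-Bl by Spearman's rho and the rest were changes of sign in values past no cutoff. The cause of these shifts was not tested. With the replicate block the number of genes past the cutoff in LP245/+ against LP+/+ was 0. The medians of the members with this block were -0.22, -0.06 and -0.14. The deviations of same-numbered livers from their group means had correlations of -0.08 to 0.03. With so few livers per group these correlations cannot decide whether same-numbered livers were paired. With the library series as a factor, H2-Q6 and H2-Q7 had log2 fold changes of 0.07 and 0.22 in LP245/+ against LP+/+ and 0.63 and 1.03 in LP245/+ against LPfl/+, a comparison that this fit makes only through the LP+/+ livers. In LPfl/+ against LP+/+ the same factor gave 0.06 for H2-K1, 0.10 for H2-D1 and 0.19 for B2m, and library totals gave 0.05 for H2-K1 and 0.03 for B2m. The counts of all 32 heavy chains summed to 1 gene had log2 fold changes of -0.17, -0.14 and -0.03 (adjusted p = 0.852, 0.857 and 0.979 in edgeR). Without H2-Q10, an alternative chosen after seeing the data, they were -0.20, -0.01 and -0.18. H2-Bl was on in 5 livers under each threshold, and off in 3 with off set at 10 counts or fewer and on at 20 or more. Genes with few counts, such as H2-Bl in its low livers, are limited by counting error.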
